A study of Mus musculus with 6 samples.

Results

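DNA methylation of single CpG sites, short stretches and large regions was compared between mouse embryonic stem cells expressing DNMT3B1 and the same kind of cells expressing DNMT3A2. Both lines lacked the endogenous enzymes DNMT1, DNMT3A and DNMT3B, so that each carried 1 reintroduced DNA methyltransferase, and both kept SETD2. A site was included when it lay on an autosome, had at least 5 reads in both lines, and had at most 45 reads in the DNMT3A2 line and 40 in the DNMT3B1 line. This held for 11147011 of 19807681 autosomal sites (56.3%), and 17977 sites were left out for exceeding the maximum. A further line served as a reference that took no part in choosing sites. It expressed DNMT3B1, lacked SETD2 as well, and listed 7047535 of the included sites.

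Each line was 1 library, sequenced in 2 runs, and the labels named no separate cultures. No p-value between lines was therefore computed. Values are given with their standard deviation (SD) over the 19 autosomes, which are parts of 1 library and not replicates, or with an exact 95% binomial interval. For a count of 0, the level that 3 methylated reads would give is stated as the upper limit. Intervals and limits cover counting error only. Reads were summed over CpGs, so a read that covers several CpGs counts at each of them. Reads of a site also resembled each other, as given below. Intervals and limits treat all these counts as independent, so the intervals are too narrow and the limits too low. The sources used here do not give the promoter that drove each enzyme, its amount or the number of clones. Mean coverage of the included sites was 12.2 reads in the DNMT3A2 line and 11.96 in the DNMT3B1 line, and the SETD2 knockout had 18.9 at the sites it listed.

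In mammals DNMT3A and DNMT3B place methyl groups on cytosines of CpG dinucleotides that carried none, and DNMT1 copies the pattern onto the new strand after replication. Without DNMT1, a methylated CpG has to be methylated anew as cells divide. SETD2 trimethylates lysine 36 of histone H3 over transcribed genes, a mark that the PWWP domain of DNMT3 enzymes can bind.

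The included sites were methylated at 7.35% ± 0.22 (SD over autosomes) with DNMT3A2 and at 2.81% ± 0.09 with DNMT3B1, and the lowest autosome of the first line (6.77%) lay above the highest of the other (3.00%). The ratio was 2.62 ± 0.05. Sites at the edge of the coverage rule had similar levels. At 5 reads with DNMT3A2 the levels were 7.14% and 2.85%, and at 4 reads, just outside, 7.04% and 2.87%. At 45 reads they were 6.92% and 2.76%, and at 46 reads 6.19% and 2.54%. Most comparisons below are therefore given relative to the level of each line.

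The ratio of the lines depended on the base before and the base after a CpG, and the classes of flanking bases with high levels differed between the lines. The deposited table gives positions without sequence. Flanking bases were read from RefSeq promoters (GRCm38.p6, 300 bases each) whose pattern of distances between CpGs matched a single place on the same chromosome of the table. Of 21665 promoters with at least 4 CpGs, 88.9% matched 1 place, against 0.918% when the pattern was reversed. The 42922 included CpGs in promoters with fewer than 40 CpGs per kb around them were analysed here, since denser promoters were almost free of methylation. The analysis of flanking bases was added after other results were known. Promoters are a small part of the genome, and whether the values hold outside them was not tested.

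The promoters of Fam78a and Gm33801 illustrate what single sites look like. Each is shown as the 250 bases before the start of transcription, on the strand of the gene and 5′ to 3′, with the CpGs in capitals. Among 990 promoters with at least 8 included CpGs in that window, they carried the most methylated reads with DNMT3A2 and with DNMT3B1, so their levels were chosen and are a description.
Fam78a (chr2:32064912-32065161, GRCm38.p6, minus strand): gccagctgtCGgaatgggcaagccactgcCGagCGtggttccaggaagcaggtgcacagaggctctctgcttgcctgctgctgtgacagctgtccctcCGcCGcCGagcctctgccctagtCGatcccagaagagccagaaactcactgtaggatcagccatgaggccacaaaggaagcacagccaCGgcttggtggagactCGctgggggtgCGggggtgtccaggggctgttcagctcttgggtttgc
Gm33801 (chr17:25539695-25539944, GRCm38.p6, minus strand): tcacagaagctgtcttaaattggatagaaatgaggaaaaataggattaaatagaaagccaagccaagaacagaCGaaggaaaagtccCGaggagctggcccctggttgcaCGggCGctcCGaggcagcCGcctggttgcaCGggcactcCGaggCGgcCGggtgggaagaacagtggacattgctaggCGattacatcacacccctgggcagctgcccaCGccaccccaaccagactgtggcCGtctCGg

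In the Fam78a promoter DNMT3A2 methylated 52 of 198 reads (26.3%) over 9 included CpGs, and DNMT3B1 methylated 0 of 105, which allows a level of up to 2.86%. With DNMT3A2 the CpG at base 34 had 22 of 38 reads methylated and its neighbour at base 30 had 2 of 38. Sites 4 bp apart thus had very different levels in the same line and at the same depth. In the SETD2 knockout 4 of 82 reads were methylated (4.88%) over the included CpGs it listed. In the Gm33801 promoter DNMT3A2 methylated 33 of 352 reads (9.38%) and DNMT3B1 42 of 356 (11.8%). With DNMT3B1 the CpG at base 111, an A before it and a G after it, had 7 of 30 reads methylated, and that at base 120, between C and A, 7 of 32. The CpGs at bases 129 (between C and C) and 155 (between G and G) had 0 of 32 and 0 of 28 in that line, against 4 of 26 and 2 of 21 with DNMT3A2. The CpG at base 115, between G and C, had 4 of 30. With DNMT3B1 the promoter thus held methylated CpGs and CpGs with no methylated read between them.

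Over all promoter CpGs, sorted into the 10 classes given by 1 base on each side (a class and its reverse complement are the same), the TCGA class was methylated at 3.19% with DNMT3A2 (exact 95% interval 2.95% to 3.44%) and at 2.87% with DNMT3B1 (2.64% to 3.12%). The lines were thus almost level there. The GCGC class had 4.14% with DNMT3A2 (3.96% to 4.34%) and 0.389% with DNMT3B1 (0.333% to 0.452%), a 10.7-fold difference. Relative to the ratio of the lines over all these promoter CpGs, the log2 ratio of DNMT3B1 over DNMT3A2 was 1.38 for TCGA, 1.07 for CCGA and 0.79 for CCGG. It was 0.35 for ACGG and 0.19 for ACGA. It was -0.70 for ACGT, -0.78 for ACGC, -0.83 for CCGC, -0.95 for GCGA and -1.88 for GCGC. On the 18 autosomes with placed promoters the ratio was above 0 on all 18 for TCGA and CCGA and on 17 for CCGG. It was above 0 on none for CCGC and GCGC, and on 3 for GCGA. The 4 classes with a C after the CpG on either strand were thus all relatively low with DNMT3B1, as was ACGT.

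The same order of these ends was present at fixed CpG density. At 10 to 19 CpGs per kb the relative log2 ratio was 1.29 for TCGA and -1.99 for GCGC, and at 20 to 39 CpGs per kb it was 1.13 and -1.76. The spread between the 10 classes, given as the variance of their levels divided by the squared mean, was 0.0340 with DNMT3A2 and 0.284 with DNMT3B1. In percentage points the SD over classes was the same, 0.81 in each line, so the larger value with DNMT3B1 went with its lower level. With 2 bases on each side (136 classes) the relative variances were 0.138 and 0.452 and the SDs 1.64 and 1.02 points. DNMT3A2 levels ranged only from 3.19% (TCGA) to 6.01% (ACGT), and DNMT3B1 levels from 0.389% (GCGC) to 2.87% (TCGA). The SETD2 knockout, with the same enzyme and a higher level, listed 30152 of these CpGs and had an order close to that of DNMT3B1. Its level was 6.64% for TCGA, 6.02% for CCGA, 2.06% for CCGC and 1.61% for GCGC, with a spread between classes of 0.183. The covariance of class levels, on the same relative scale, was 0.226 between the DNMT3B1 line and the knockout and -0.0121 between the DNMT3B1 and DNMT3A2 lines. At 10 to 19 CpGs per kb these values were 0.179 and -0.0521, and at 20 to 39 they were 0.195 and -0.00253. The value between DNMT3B1 and DNMT3A2 thus varied with density. These 10 classes are a description of 3 libraries and carry no test.

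With 2 bases on each side, 99 classes had at least 200 sites. The class with the lowest DNMT3B1 level relative to DNMT3A2 was ACCGCT, at 3.85% with DNMT3A2 (170 of 4420 reads) and 0.169% with DNMT3B1 (7 of 4141), a relative log2 ratio of -2.97. GGCGCC followed with 5.19% and 0.237%, a ratio of -2.92. At the other end, ATCGGG had 2.23% with DNMT3A2 (66 of 2961) and 3.94% with DNMT3B1 (107 of 2718), a ratio of 2.35, and CCCGGG had 2.00% and 2.64%, a ratio of 1.94. In both of these classes the DNMT3B1 level was above the DNMT3A2 level. The exact 95% intervals did not overlap for ATCGGG (1.73% to 2.83% and 3.24% to 4.74%) and overlapped for CCCGGG (1.65% to 2.39% and 2.25% to 3.08%). They treat the reads of a site as independent and are too narrow, so they do not settle whether the lines differed in ATCGGG. The named classes are the extremes of the 99 by this ratio, so their values are a description. The classes are common: on either strand TCGA was present in 27.9% of the 19266 placed promoters, ACGT in 38.04%, ACGA in 49.0%, GCGC in 66.6%, ACGG in 70.6%, GCGA in 71.7%, CCGG in 72.3%, ACGC in 73.2%, CCGA in 74.7% and CCGC in 84.7%. A match is a description of the bases and not of a binding site.

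Methylation of single sites was partial in both lines, and the excess of DNMT3A2 grew with the degree of methylation. To compare sites of unequal depth, the chance of each outcome was computed for 5 reads drawn from every site. No read of 5 was methylated at 75.9% of sites with DNMT3A2 and 90.1% with DNMT3B1. Exactly 1 of 5 was methylated at 15.1% and 6.70% of sites, a ratio of 2.26. All 5 were methylated at 0.112% and 0.0323%, a ratio of 3.48, and the ratio climbed at every step between. Mostly methylated sites, with 3 or more of 5 reads, made up 2.83% ± 0.23 (SD over autosomes) of sites with DNMT3A2 and 0.890% ± 0.10 with DNMT3B1, a ratio of 3.18 ± 0.17 against 2.62 for the levels. Whether the difference in level alone would make the ratio climb with the number of methylated reads was not tested. At full depth 3094 sites were methylated in every read with DNMT3A2 and 1101 with DNMT3B1.

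The ratio of mostly methylated sites depended on the density of CpGs within 1 kb. It was 1.94 at 1 to 4 CpGs per kb, where 1.78% and 0.921% of sites were mostly methylated, 3.56 at 10 to 19, with 3.67% and 1.03%, and 3.61 at 20 to 39. At 60 or more CpGs per kb, the density of CpG islands, the shares were 0.0185% and 0.0156%, a ratio of 1.19. This ratio lies near the floor. Levels there, weighted by pairs of reads, were 0.215% and 0.153%. Those at 100 or more CpGs per kb, used below as background, were 0.175% and 0.142%. The share with DNMT3A2 peaked at 10 to 19 CpGs per kb, whereas that with DNMT3B1 was similar from 5 to 19 (1.05% and 1.03%).

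**Figure D1:**
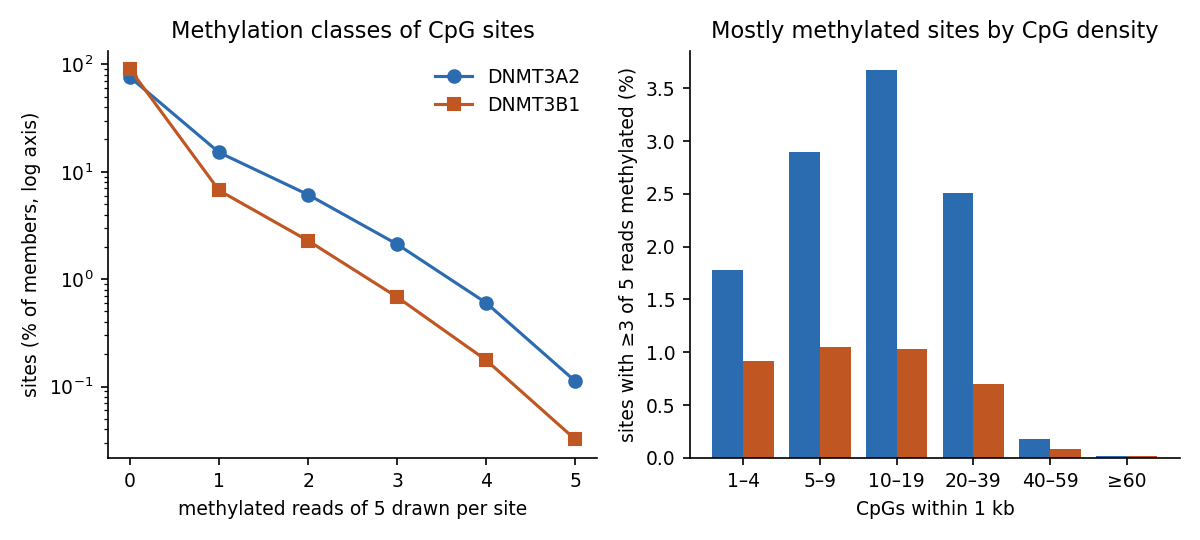
Left, percentage of the 11147011 sites (log axis) by the number of methylated reads among 5 drawn per site, for DNMT3A2 (blue circles) and DNMT3B1 (orange squares). Right, percentage of sites with at least 3 of 5 reads methylated by CpGs within 1 kb; the DNMT3A2 bars peak at 10 to 19 CpGs per kb (3.67%), and the DNMT3B1 bars reach 1.05%.

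Reads of the same site resembled each other to the same degree in both lines once their levels were taken into account. Given 1 methylated read, another read of that site was methylated in 22.0% ± 1.2 of cases with DNMT3A2 and in 17.8% ± 1.5 with DNMT3B1. Divided by the level, this was 2.99-fold and 6.34-fold. On a scale from 0 (reads independent) to 100% (all reads of a site alike), however, the DNMT3A2 excess was 15.8% ± 1.2 and the DNMT3B1 excess 15.4% ± 1.5, and that of the SETD2 knockout was 13.7%. The ratio of the lines on that scale was 0.978 ± 0.030. Without the coverage maximum that ratio was -0.741 ± 2.64 and the ratio of the folds was 0.441 ± 0.661 instead of 2.12. The value fell with coverage, from 21.1% and 22.6% at sites with 5 reads to 14.3% and 13.7% at sites with 21 to 45 reads, in the order DNMT3A2 and DNMT3B1. It fell with CpG density too, to 8.23% and 8.31% at 60 or more CpGs per kb. Amplified copies of a fragment and overlapping read pairs add to this value, the libraries were amplified, and their part was not tested.

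Mostly methylated sites recurred less often in the other line than in other reads of the same line. Of the sites mostly methylated with DNMT3B1, 5.12% ± 0.33 were also mostly methylated with DNMT3A2, and of those with DNMT3A2, 1.61% ± 0.15 were so with DNMT3B1. This was 1.81 ± 0.07 times the product of the shares. The first value fell to 1.84% with at least 4 of 5 reads as the limit. At the 4425936 sites with at least 10 reads in both lines, another 5 reads of the same line were again mostly methylated at 25.0% ± 1.8 of these sites with DNMT3A2 and at 21.3% ± 2.4 with DNMT3B1. The shares in the other line were 1.48% ± 0.17 and 5.25% ± 0.44 there. Reads of the same line can be copies of a fragment, whose part was not tested. Of the 3239817 sites with at least 10 reads in both lines that the knockout also listed, 5 reads per line set the class and the remaining reads gave a level that had no part in it. At sites mostly methylated with DNMT3A2 and with 0 of 5 reads methylated with DNMT3B1, the remaining reads had 32.2% with DNMT3A2 and 2.37% with DNMT3B1. The latter was 0.873 times the mean of all these sites in that line. At sites with 0 of 5 reads methylated in both lines the remaining reads had 3.50% and 1.24%, so that among sites with 5 unmethylated DNMT3B1 reads those mostly methylated with DNMT3A2 had the higher DNMT3B1 level. At sites of the opposite class the remaining reads had 6.07% with DNMT3A2, 0.844 times its mean and likewise above 3.50%, and 28.8% with DNMT3B1. Sites mostly methylated in both, 1130 in expectation, had 38.4% and 33.9%.

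The SETD2 knockout, which had no part in setting these classes, was above its mean in both of the opposite classes, and more so in that of DNMT3B1. Its level was 5.69% over all these sites, 8.15% ± 0.25 at those mostly methylated with DNMT3A2 and with 0 of 5 reads with DNMT3B1 (1.43 times its mean), and 11.3% ± 0.42 at those of the opposite class (1.99 times). At sites mostly methylated in both lines it was 14.9% ± 1.3. The opposite classes were not equally extreme. The remaining reads had 4.48 times the DNMT3A2 mean in the class of DNMT3A2 and 10.6 times the DNMT3B1 mean in that of DNMT3B1. These values thus do not settle which line the knockout lay nearer to.

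The resemblance between lines was also measured at single-base resolution, in DNA of 5 to 19 CpGs per kb. Reads of different lines share no molecule, so copies of a fragment cannot raise this value. The quantity is the joint methylation of a pair of reads, their chance of being both methylated divided by the product of the mean levels, so that 1 means independence. Between DNMT3B1 and the knockout it was 1.55 ± 0.01 at the same CpG and 1.15 ± 0.03 for CpGs 2 to 10 bp apart, a drop of 0.404 ± 0.030 within 10 bp. Between DNMT3A2 and DNMT3B1 it was 1.247 ± 0.013 and 1.19 ± 0.03, a drop of 0.0555 ± 0.0221. Between DNMT3A2 and the knockout it was 1.18 ± 0.01 and 1.15 ± 0.01. On 19 of 19 autosomes the same-CpG value was higher for DNMT3B1 with the knockout than for DNMT3B1 with DNMT3A2. The resemblance that was lost within 10 bp was thus larger between the lines with the same enzyme on every autosome. The labels do not say whether the knockout line was derived from the DNMT3B1 line, and its part in this was not tested.

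The drop for DNMT3B1 with the knockout was the larger at each density from 1 to 39 CpGs per kb. It was from 1.58 to 1.21 at 1 to 4 CpGs per kb and from 1.87 to 1.43 at 20 to 39. Between DNMT3A2 and DNMT3B1 it was from 1.38 to 1.28 at the former, and at 20 to 39 the values were 1.54 at the same CpG and 1.55 at 2 to 10 bp. At 60 or more CpGs per kb, where few reads were methylated, the drop was larger between DNMT3A2 and DNMT3B1, from 14.7 to 9.88, than between DNMT3B1 and the knockout, from 2.20 to 1.45. Pooled over all densities the differences were negative, -0.283 for DNMT3B1 with the knockout and -0.818 for DNMT3B1 with DNMT3A2, and close pairs lie more often in CpG-dense DNA, where the value at 2 to 10 bp was higher, 3.18 and 5.22 at 40 to 59 CpGs per kb.

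**Figure D2:**
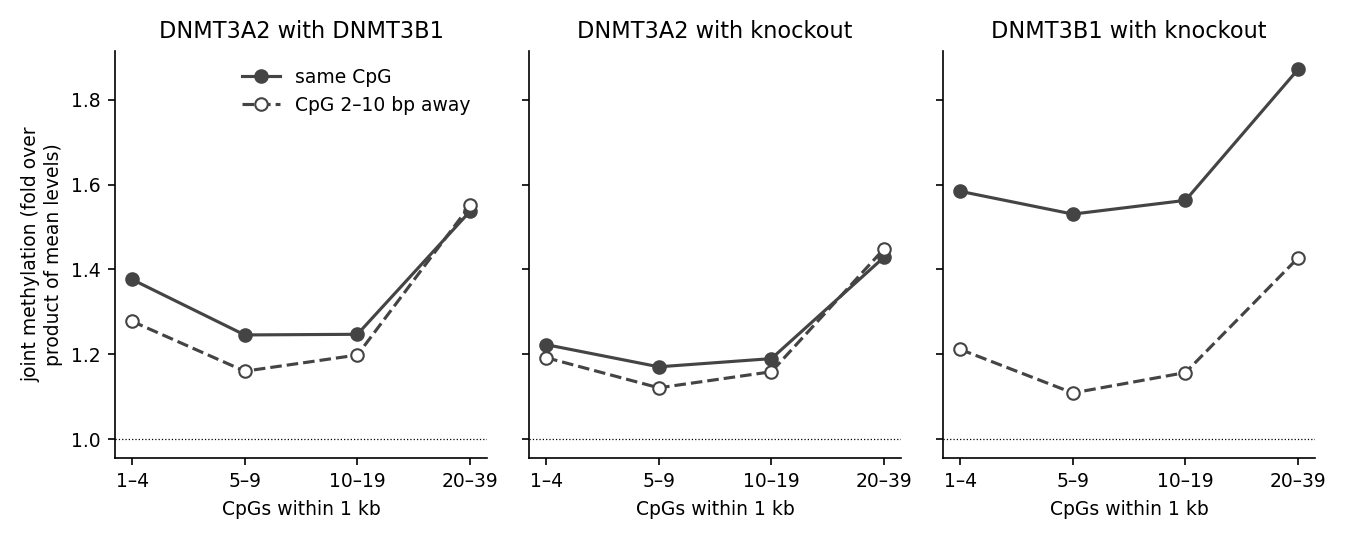
Joint methylation of reads from 2 lines (fold over the product of their mean levels) at the same CpG (filled circles) and at CpGs 2 to 10 bp apart (open circles), by CpGs within 1 kb (1 to 39 only), for the 3 pairs of lines. In this range the 2 curves lie close together in the pairs with DNMT3A2 and apart for DNMT3B1 with the SETD2 knockout (1.58 against 1.21 at the lowest density).

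Methylated CpGs followed each other in both lines, and long stretches were far rarer with DNMT3B1. Counting a site as methylated when at least 1 of 5 reads was, 24.1% of sites were methylated with DNMT3A2 and 9.87% with DNMT3B1. Over 8735513 pairs of neighbouring sites at most 500 bp apart, the next site was methylated in 37.5% ± 0.5 of cases after a methylated site with DNMT3A2, 1.53 ± 0.04 times its share over the same pairs (24.5%). With DNMT3B1 it was 17.1% ± 0.3, 1.74 ± 0.07 times its share (9.86%). The ratio of these folds was 1.13 ± 0.02. It was 1.15 ± 0.02 for neighbours up to 200 bp apart and 0.994 ± 0.022 for those further apart. After removing methylated reads from DNMT3A2 at random until the levels matched, it was 1.06 ± 0.02. After a site methylated with DNMT3A2, the next site was methylated with DNMT3B1 in 12.7% ± 0.3 of cases. Within a line, neighbouring sites can be read on the same fragment, which can raise these folds and those of the stretches below. The part of shared fragments was not tested.

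Stretches of 5 neighbouring sites, each methylated, made up 0.793% ± 0.072 of 5115922 stretches with DNMT3A2 and 0.0208% ± 0.0034 with DNMT3B1, a ratio of 38.1 ± 6.5. For 2 sites in a row the ratio was 5.44 and for 3 it was 11.1. If sites were independent the share would be the single-site share multiplied 5 times, and the observed share was 9.79 ± 0.84 times that with DNMT3A2 and 22.2 ± 4.1 times with DNMT3B1. At 5 to 19 CpGs per kb these values were 5.73 ± 0.60 and 13.1 ± 3.1. With DNMT3A2 thinned to the DNMT3B1 level it was 14.6 ± 1.4 times, and the ratio of the lines fell from 2.27 ± 0.38 to 1.52 ± 0.25. The thinned DNMT3A2 share of such stretches was 0.0336%, still above 0.0208%. Matching the levels thus left a much smaller difference in stretches, with a single-site share of 11.8% for thinned DNMT3A2 against 9.87%. Removing reads at random also lowers the concordance of reads of a site. The thinned line therefore matched DNMT3B1 in level and not in concordance.

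**Figure D3:**
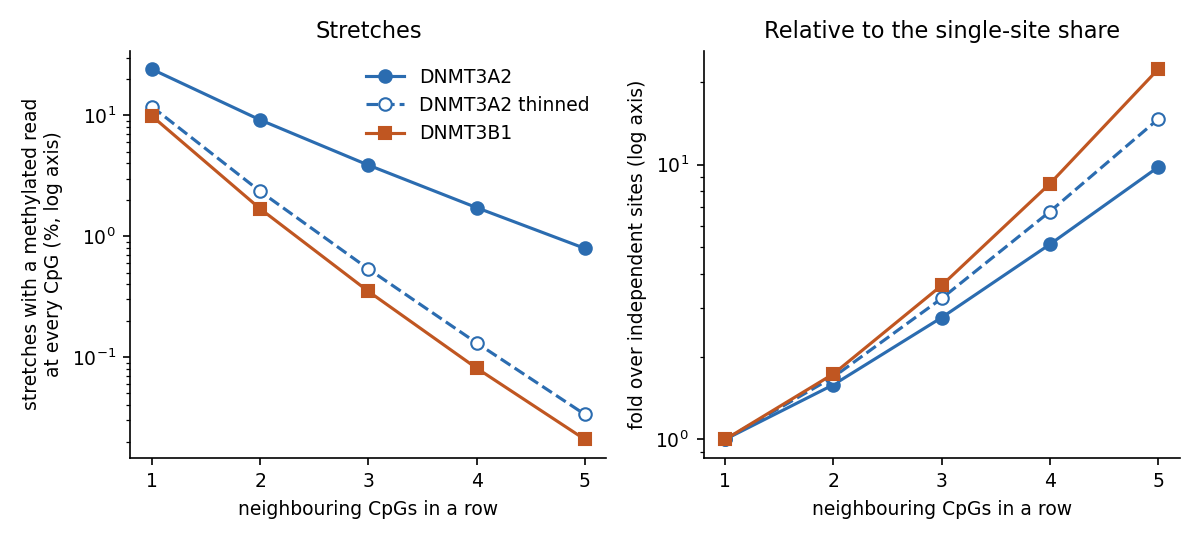
Left, percentage of stretches of 1 to 5 neighbouring CpGs with at least 1 of 5 reads methylated at each (log axis), for DNMT3A2 (blue, filled), DNMT3A2 thinned to the DNMT3B1 level (blue, open) and DNMT3B1 (orange). Right, the same divided by the share expected from independent sites (log axis); at 5 CpGs it reaches 9.79, 14.6 and 22.2.

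Runs of neighbouring sites that were each methylated in at least 50% of their reads were short. DNMT3A2 had 222131 runs, of which 20323 held 2 or more sites, 2757 held 3 or more and 85 held 5 or more. DNMT3B1 had 73196, 2901, 228 and 4. The median span of runs of 3 or more was 37 bp and 35 bp, and the longest had 7 and 6 sites. The 2757 DNMT3A2 runs of at least 3 sites had a level of 5.09% with DNMT3B1 and 9.31% in the knockout, and the 228 DNMT3B1 runs had 14.3% with DNMT3A2 and 10.7% in the knockout. Runs of either line were thus above the mean level of the other line, 2.81% and 7.35%.

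Genes near the runs are named from the placed promoters, with distances along the chromosome. Before and after refer to lower and higher coordinates and not to the strand of the gene. Whether a run or a window below lay inside a gene was not tested. The longest DNMT3A2 run with the most reads, 7 sites, lay on chromosome 2 from 168479723 to 168479837 (mm9), between the placed promoters of Nfatc2, 52.5 kb before, and Atp9a, 58.7 kb after. It had 39 of 72 reads methylated with DNMT3A2 (54.2%), 4 of 73 with DNMT3B1 (5.48%) and 1 of 123 in the knockout. Nfatc2 encodes a transcription factor activated by calcineurin, and Atp9a a membrane phospholipid transporter. On chromosome 11 from 31746655 to 31746670, 24.2 kb before the placed promoter of Cpeb4, which encodes a protein that binds cytoplasmic polyadenylation elements, 7 CpGs in 16 bp had 77.5% with DNMT3A2 and 1.42% with DNMT3B1. The runs on chromosome 16 from 85078212, 95.4 kb before App (the amyloid precursor protein), on chromosome 17 from 89149411, 42.0 kb before Lhcgr (the luteinizing hormone receptor), and on chromosome 3 from 67243984, 10.0 kb after Gfm1, had 70.6%, 77.1% and 67.0% with DNMT3A2. The DNMT3B1 levels there were 11.4%, 4.08% and 12.4%.

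The longest DNMT3B1 run with the most reads, 6 sites on chromosome 7 from 149767925 to 149767963, lay 23.3 kb after the placed promoter of Nctc1, a non-coding transcript gene near the imprinted H19 gene. It had 86 of 137 reads methylated with DNMT3B1 (62.8%), 84 of 197 with DNMT3A2 (42.6%) and 0 of 83 in the knockout, which allows up to 3.61%. These are sums over close sites, where the same read can count at each, so that limit is too low. The run was thus methylated with DNMT3B1 and with DNMT3A2, and the cause of its difference from the single knockout library was not tested. Another with 6 sites, on chromosome 7 from 143026626 to 143026715, lay 118.5 kb after the placed promoter of Mki67, which encodes the proliferation marker Ki-67. It had 50 of 65 reads methylated with DNMT3B1 (76.9%), 5 of 44 with DNMT3A2 (11.4%) and 9 of 60 in the knockout. The remaining 3 runs, on chromosome 12 from 112447041 and from 104019387 and on chromosome 9 from 54214288, had 58.6%, 56.6% and 69.2% with DNMT3B1 and 29.2%, 5.41% and 27.9% with DNMT3A2. These runs were chosen for their level, which is a description, and a run that is high in 1 library can hold copies of 1 fragment.

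The resemblance between neighbouring CpGs rose and fell with distance, with highs at similar distances in both lines and between them. In DNA of 5 to 19 CpGs per kb, joint methylation of a DNMT3A2 read and a DNMT3B1 read was 1.19 ± 0.02 at 2 to 10 bp. It fell to 1.06 ± 0.02 at 81 to 90 bp, rose to 1.18 ± 0.02 at 181 to 190 bp, and fell to 1.05 ± 0.02 at 271 to 280 bp. Further highs of 1.15 ± 0.03 and 1.11 ± 0.02 were at 361 to 370 bp and 531 to 540 bp, with a low of 1.04 ± 0.03 at 451 to 460 bp between them. On 19 of 19 autosomes the value at 181 to 190 bp was above those of both flanking lows. CpGs at that distance on reads of different lines were thus as alike as CpGs within 10 bp. The distances of the highs and lows were read from these data.

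Within a line the same wave was present. With DNMT3A2 the value was 1.76 ± 0.05 at 2 to 10 bp, 1.12 at 101 to 110 bp and 1.34 ± 0.02 at 181 to 190 bp. With DNMT3B1 it was 2.13 ± 0.11 at 2 to 10 bp, 1.17 at 111 to 120 bp and 1.48 ± 0.05 at 181 to 190 bp. Both lines had their next high at 351 to 360 bp, at 1.20 ± 0.02 and 1.21 ± 0.04. Pairs on the same fragment enter the within-line values at short range, and fragments were size-selected, so only the value between lines is free of them. Beyond 800 bp, up to 1000 bp, the values were 1.08 with DNMT3A2, 1.09 with DNMT3B1 and 1.06 between them. Nucleosomes recur at a similar spacing in mammalian chromatin, but their positions were not measured and their part was not tested. Over all CpG densities the rise from 81 to 90 bp to 181 to 190 bp between lines was 0.244 ± 0.035, against 0.121 ± 0.026 at 5 to 19 CpGs per kb.

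**Figure D4:**
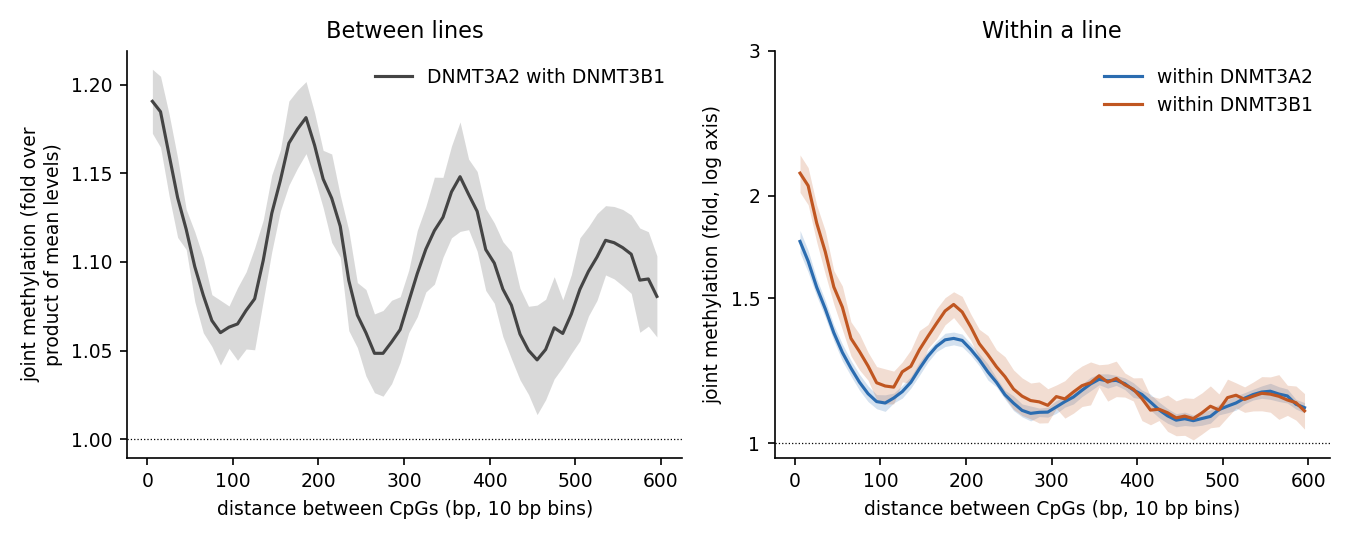
Joint methylation of 2 reads (fold over the product of mean levels) by the distance between their CpGs in 10 bp bins, at 5 to 19 CpGs per kb; lines are values over all autosomes and bands the SD over 19 autosomes. Left, a DNMT3A2 with a DNMT3B1 read, with highs at 181 to 190 bp (1.18) and 361 to 370 bp (1.15); right, 2 reads of the same line (log axis), with highs at 181 to 190 bp of 1.34 (DNMT3A2, blue) and 1.48 (DNMT3B1, orange).

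Within 1 kb windows, most of the variation measured within each line lay between neighbouring CpGs and not between windows. The value between sites rests on reads of the same site, to which copies of a fragment add. Their part was not tested. Over 867396 windows with at least 5 included sites, the variance between sites of a window, divided by the squared level, was 1.47 ± 0.11 with DNMT3A2 and 4.81 ± 0.42 with DNMT3B1, a ratio of 3.28 ± 0.08. On the scale from 0 to 100% used for reads of a site, it was 12.03% ± 0.97 and 13.8% ± 1.3, a smaller difference. The variance between windows was 0.456 ± 0.036 and 0.555 ± 0.048. The covariance between lines, which such copies cannot raise, had the opposite order over all densities, but not at 5 to 19 CpGs per kb. It was 0.30 ± 0.03 between windows and 0.167 ± 0.014 between sites of a window. At 5 to 19 CpGs per kb the covariance between windows was 0.106 ± 0.007, lower than over all densities, and that between sites of a window was 0.136 ± 0.010. The value between sites was thus the larger at that density, as for the variances within each line. The variances between windows were 0.243 and 0.325 there, and those between sites of a window 1.23 and 4.03.

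No methylated read was seen in 8.66% of windows with DNMT3A2 and in 28.8% with DNMT3B1, and 4.72% had none in either. The level with DNMT3B1 was above that with DNMT3A2 in 17.6% of windows. Among 283822 windows with at least 10 included sites and 100 reads in each line, this share was 13.4%. The largest difference towards DNMT3A2 was on chromosome 2 from 115659001 to 115660000, 230.5 kb before the placed promoter of Meis2, a homeobox gene. DNMT3A2 methylated 68 of 129 reads there (52.7%), spread over 10 of 11 sites, DNMT3B1 2 of 151 (1.32%) and the knockout 16 of 126 (12.7%). A window on chromosome 12 from 103471001, 49.2 kb before Rin3, had 65 of 130 reads methylated with DNMT3A2, 0 of 108 with DNMT3B1 (up to 2.78%) and 0 of 85 in the knockout (up to 3.53%). One on chromosome 6 from 5964001 had 73 of 149 and 1 of 125.

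The largest difference towards DNMT3B1 was smaller. It lay on chromosome 15 from 68853001 to 68854000, a region whose nearest placed promoter was 900.6 kb away. DNMT3B1 methylated 36 of 106 reads (34.0%, over 6 of 10 sites), DNMT3A2 1 read (0.763%) and the knockout 4 of 50. On chromosome 17 from 68214001, 85.4 kb before Arhgap28, the counts were 50 of 161 with DNMT3B1 and 6 of 157 with DNMT3A2. On chromosome 10 from 38521001 they were 34 of 118 and 3 of 112. The windows were chosen for these differences, which are a description.

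At the scale of 1 Mb the DNMT3B1 level was more even than the DNMT3A2 level. In the 1798 of 2417 tiles with at least 2000 included sites, the level with DNMT3A2 ran from 4.72% at the 5th percentile to 9.72% at the 95th, a 2.06-fold rise, and that with DNMT3B1 from 2.15% to 3.52%, a 1.64-fold rise. The DNMT3B1 level was above the DNMT3A2 level in 0 of these tiles. The SD of the log2 level over tiles was 0.33 with DNMT3A2 and 0.22 with DNMT3B1. Pearson's r of the log2 levels was 0.800 over the 1798 tiles, which share CpG density and mappability in both lines.

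With the ratio of the lines over all sites as the reference, 161 tiles (8.95%) were higher with DNMT3B1 and 5 (0.278%) were lower, by at least 0.32 on the log2 scale and with a 95% interval from 10 kb blocks that left out 0. The higher tiles had few CpGs, a median of 11.5 within 1 kb of their sites against 17.4 over all tiles, and held a median of 3 placed promoters against 8. Their median level was 5.12% with DNMT3A2, against 7.41% over all tiles, and 2.62% with DNMT3B1, against 2.86%, so the DNMT3A2 level was the further from its median. In the fifth of tiles with the lowest density, 99 of 360 were higher. At the sites that the knockout listed, its ratio over DNMT3A2 was raised in the higher tiles by 0.47 (median log2) and its ratio over DNMT3B1 by 0.01, compared with all tiles. The DNMT3A2 level is part of both the choice of tiles and the first of these ratios.

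The number of these calls changed with the sites and chromosomes used. Chromosomes 6, 8 and 11 had a mean coverage of 14.8, 14.0 and 16.2 reads with DNMT3A2, against 10.9 to 12.1 on the other autosomes, and held 30, 20 and 11 of the higher tiles (23.4%, 18.7% and 9.65% of their tiles), against 2.00% to 10.7% elsewhere. Refitted without them, 97 tiles were higher and 8 lower. With sites of 5 to 19 CpGs per kb alone, 53 were higher and 3 lower. With at least 10 reads per site, 822 tiles were left, of which 15 were higher and 17 lower. Only 9 of the 161 higher tiles could be fitted at that minimum, of which 7 were again higher and 9 had a ratio above 0.

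The highest tile lay on chromosome 11 from 92000001 to 93000000 and held the promoters of Car10, which encodes a carbonic anhydrase-related protein of the nervous system. DNMT3A2 methylated 503 of 24637 reads there (2.04%) and DNMT3B1 414 of 23534 (1.76%), which gave a log2 ratio of 1.17 relative to the reference (95% interval 0.82 to 1.52). The knockout level was 4.44%. The tile with Marchf1, a gene for a membrane-bound ubiquitin ligase, on chromosome 8 from 68000001 had 3.41%, 2.40% and 6.17% and a ratio of 0.88 (0.63 to 1.13). Those on chromosome 8 from 78000001, on chromosome 6 from 63000001 and on chromosome 6 from 80000001, 30.5 kb after the placed promoter of Lrrtm4 (a synaptic membrane protein), held no placed promoter. Their ratios were 0.87, 0.86 and 0.85. All 5 lay on chromosomes 6, 8 and 11. They held between 2077 and 2578 included sites, not far above the minimum for a tile. Whether the higher coverage of these chromosomes let such tiles reach that minimum more often than elsewhere was not tested.

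The 5 lower tiles had DNMT3A2 levels between 7.69% and 10.2%, against the median of 7.41% over all tiles. On chromosome 3 from 9000001 to 10000000 the level was 9.13% with DNMT3A2 and 2.57% with DNMT3B1, a relative log2 ratio of -0.44 (-0.57 to -0.32). The tile with Ptprg, a receptor-type tyrosine phosphatase gene, on chromosome 14 from 12000001 had 10.2% and 2.96%, a ratio of -0.40 (-0.55 to -0.24). That on chromosome 3 from 101000001, with Igsf3 and Casq2, a calsequestrin gene of the heart, had -0.34, that on chromosome 11 from 117000001, with Septin9, Socs3 and Birc5, had -0.33, and that on chromosome 10 from 18000001, with Tnfaip3, a regulator of NF-kB signalling, had -0.33.

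**Figure D5:**
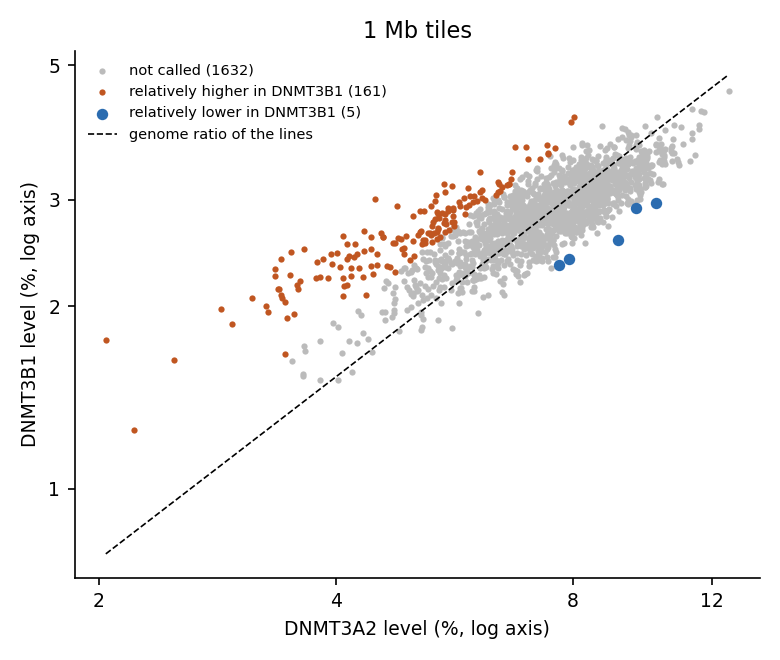
DNMT3B1 against DNMT3A2 level (percent, both log axes) in 1798 tiles of 1 Mb; the dashed line marks the genome-wide ratio of the lines. The 161 relatively higher tiles (orange) have a median DNMT3A2 level of 5.12%, the 5 relatively lower ones (blue) lie at higher levels, and from the 5th to the 95th percentile DNMT3B1 levels rise 1.64-fold and DNMT3A2 levels 2.06-fold.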

How the data were processed

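The members, lists and comparisons were chosen with earlier results of these data known. Per the file headers, the deposited table gave the count of all reads and of methylated reads per CpG site for the DNMT3A2 and DNMT3B1 lines. The headers name no run, and the counts were taken to be sums over the runs of each line. For the SETD2 knockout the authors deposited counts and the methylated fraction at sites with at least 10 reads, in a pair of identical files that were used once, with at most 80 reads per site. Positions are of mm9, a build that the submitters' processing notes name. How reads were aligned, methylation called and duplicates treated is not given in the sources used here. A duplicate counted as a separate read would raise within-line concordance.

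Values were computed with Python 3.11.15, numpy 2.4.6, pandas 2.3.3 and scipy 1.17.1, and tested on simulated data. Drawing 5 reads was computed exactly, without random draws. Relative variances were planned as divided by the squared level and were instead divided by the mean levels of the same read pairs, with windows weighted equally, after the first form gave negative values. The 0 to 100% scale, the view at 5 to 19 CpGs per kb, the distance highs and lows, the flanking bases, the repeat of the class within a line and the promoter names were added after the data were seen. Promoters were placed by CpG spacing without converting coordinates. The text names the 5 longest runs of each line (ties by reads), the 3 windows with the largest difference in each direction, and the 5 highest and lowest called tiles.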

Additional observations from a re-analysis of the deposited data

How the results depend on the processing

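No paired analysis was possible because each line is 1 library whose deposited values are not split by run, and no run could be left out. Of 87 values of 13 comparisons under other settings, 48 stayed within 1 SD over autosomes (counts of tiles within 1.5 times), 37 moved further and 2 changed direction. The cause was not tested unless stated. A change of direction was counted only where the main value lay more than 1 SD from no difference. The concordance ratio of -0.741 below thus counts as moved. The fold ratio of 0.441 and the drop of -0.818 changed direction but are not among the 87 values. At a minimum of 10 reads the ratio of mostly methylated sites was 3.54, the ratio of 5-site stretch folds 2.76, the SD of the relative log2 tile ratio 0.15 (0.20 in the report), and 15 tiles were higher and 17 lower. Without a coverage maximum the ratio of the lines was -0.741 ± 2.64 for read concordance, 0.441 ± 0.661 for the fold of a further methylated read and 3.40 for variance within windows, the rise to 181 to 190 bp was 0.141 ± 0.795, and 261 tiles were higher and 2 lower. Without chromosomes 6, 8 and 11, 97 and 8 tiles were. At 5 to 19 CpGs per kb the concordance ratio was 1.02, the rise 0.121, the tile SD 0.15, and 53 and 3 tiles were called. With the level at 100 or more CpGs per kb subtracted as background, the window ratio was 3.48, the drop for DNMT3B1 with the knockout 0.449, and 9 tiles were lower. With 10 reads per site and 6 of 10 as the limit, the mostly methylated ratio was 4.14 and the overlap 3.69%. With 4 of 5 they were 3.43 and 1.84%. With sites weighted equally the concordance ratio was 1.02. The ratio of continuation folds was 0.994 above 200 bp, 1.43 with sites methylated at 3 of 5 reads, and 1.06 with DNMT3A2 thinned, which gave 1.52 for 5-site stretches. Windows of 500 bp and 2 kb gave 3.43 and 3.15. Tiles shifted by 500 kb gave 12 lower. Tiles of 500 kb gave 413 higher, 81 lower and an SD of 0.25, and those of 2 Mb 59, 1 and 0.17. Over all densities the drop at 2 to 10 bp was -0.283 for DNMT3B1 with the knockout and -0.818 for DNMT3B1 with DNMT3A2. The TCGA and GCGC ratios stayed within 1 SD in all settings run, but that SD is wide (0.53 and 0.90), since single autosomes hold few methylated DNMT3B1 reads at these sites.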
